A study of Rattus norvegicus with 24 samples.

Results

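Mmp2, Mmp9 and Timp1 are 3 genes of extracellular matrix turnover, chosen by their Ensembl identifiers (ENSRNOG00000016695 for Mmp2, ENSRNOG00000017539 for Mmp9 and ENSRNOG00000010208 for Timp1) from the 32883 identifiers in the deposited count table. All 3 were among the 14540 genes that passed the filter on low counts. RNA was sequenced from left ventricle of Sprague Dawley rats at day 7 in 24 libraries, 6 in each of 4 groups. The Microneedle patch group had an infarct and a patch that holds on by microneedles, the Sutured patch group had an infarct and a patch fixed by sutures, the MI group had a myocardial infarction and no patch, and the Sham group was the operated control. Per the labels' protocols the infarct region was taken. The labels leave unsaid which piece of ventricle the Sham hearts gave, how old the rats were and of which sex, what the patches were made of or carried, and whether each library is a separate rat; p-values therefore measure the spread between libraries, which may be technical.

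Matrix metalloproteinases are zinc-dependent enzymes that are secreted as inactive precursors and cut collagens and other proteins of the extracellular matrix. Mmp2 and Mmp9 encode gelatinase A and gelatinase B, which digest denatured collagen and the type IV collagen of basement membranes; in the injured heart Mmp2 is made mainly by fibroblasts and other resident cells, and Mmp9 largely by neutrophils and macrophages. Timp1 encodes a secreted tissue inhibitor that blocks the active site of most metalloproteinases, binds the precursor of gelatinase B, and is a poor inhibitor of the membrane-type enzymes that activate gelatinase A.

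Library totals ranged from 13590783 to 14552623 counts with the microneedle patch, from 12574300 to 14437712 with the sutured patch, from 12864218 to 13974505 in MI and from 5443782 to 11757562 in Sham, so that each Sham library was shallower than any other. Sham replicates 4 and 5 had the fewest genes with a count (14079 and 13635). In tissue of this kind, more cells of a type cannot be told apart from more RNA per cell. Apart from the 3 members, the identifiers come without gene names here, so that markers of cell types and the other metalloproteinases and inhibitors could not be looked up, and the part that cell composition has in the values below was not tested.

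All 3 genes rose in MI relative to Sham, a comparison in which 21.6% of the genes tested were called higher. Timp1 and Mmp9 rose again with each patch relative to MI, Timp1 by 2.42 times with the microneedle patch and 2.01 times with the sutured patch, Mmp9 by 3.92 times with the microneedle patch and 4.58 times with the sutured patch. The Mmp9 calls against MI could each be lost by leaving out 1 library. The one for the microneedle patch was lost without either of 2 libraries, with a 2.50-fold difference without Microneedle patch replicate 2. The one for the sutured patch was lost when any 1 of 5 libraries was left out. Its difference was then 3.37-fold without Sutured patch replicate 6, and 4.12-fold to 4.72-fold without MI replicate 1, 2, 4 or 5. Mmp2 did not pass the test against MI with either patch, and no difference of the 3 genes between the patches passed. The calls come from edgeR's quasi-likelihood test over all genes at a Benjamini-Hochberg adjusted p below 0.05, and levels are CPM (counts scaled to a common library size) on TMM-scaled library sizes. CPM is not divided by gene length, so levels are compared between groups and not between genes.

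**Figure D1:**
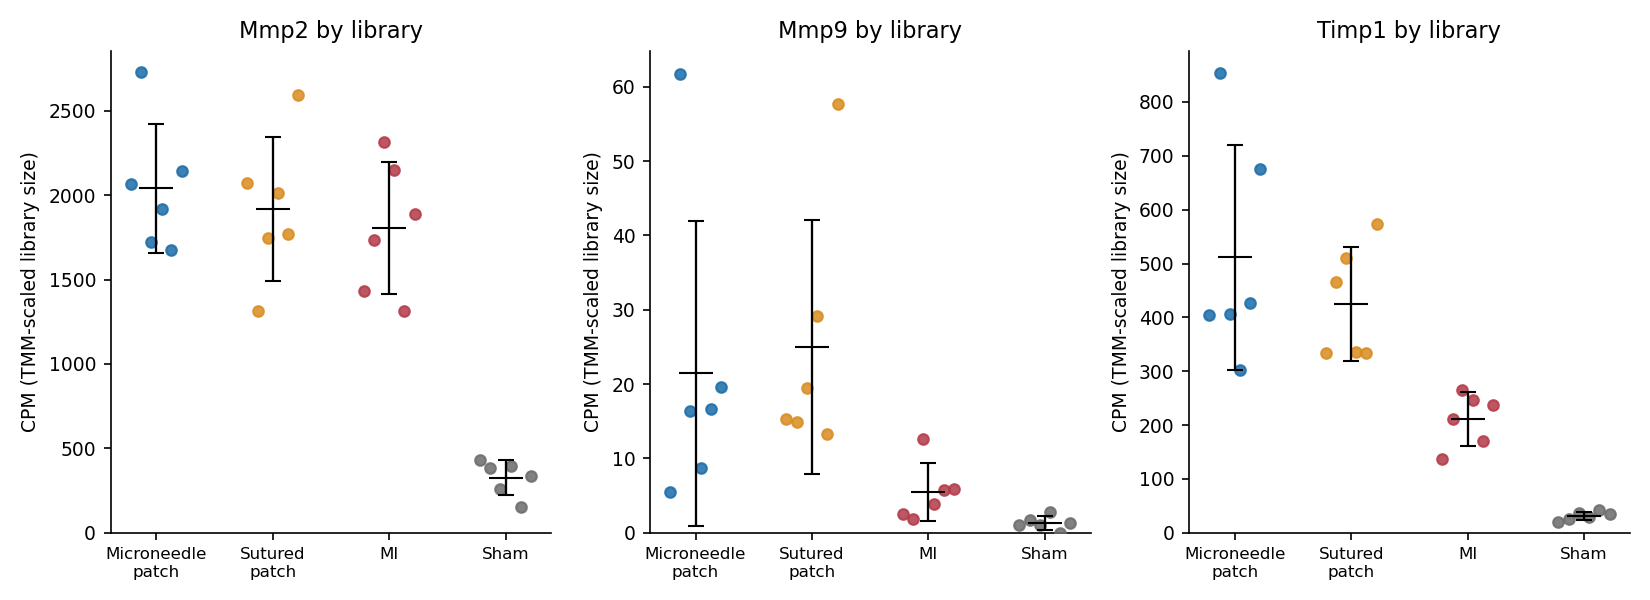
Levels of Mmp2, Mmp9 and Timp1 in CPM (linear axes from 0) in the 6 libraries of each group, 1 point per library, with the mean and SD in black. Mmp2 forms a high band in the 3 infarct groups over Sham, Timp1 lies higher in the patch groups than in MI, and Mmp9 has a single far higher library in each patch group (61.8 CPM with the microneedle patch and 57.7 CPM with the sutured patch).

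Mmp2, gelatinase A, rose in each infarct group relative to Sham. In MI libraries it had a lowest value of 1313 CPM, a median of 1811 CPM and a highest value of 2313 CPM, against 154, 359.8 and 433 CPM in Sham libraries. Every MI library lay above every Sham library, which was the case for 14.8% of the genes tested. Means were 1805 ± 392 CPM in MI and 327 ± 103 CPM in Sham (SD, n = 6 each), a log2 fold change of 2.46 (SE 0.22, edgeR adjusted p = 5.5e-09). This is a 5.52-fold rise with a 95% interval from 4.0 to 7.60. In this comparison 44.7% of the genes tested were called and 21.6% were called higher, and the rise of Mmp2 exceeded the fold change of 95.4% of the genes tested.

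With a patch Mmp2 stayed within the range of MI, apart from single libraries. With the microneedle patch its lowest, median and highest values were 1674, 1992 and 2727 CPM, and its mean was 2042 ± 383 CPM (SD, n = 6). With the sutured patch they were 1311, 1892 and 2595 CPM, with a mean of 1918 ± 427 CPM (SD, n = 6). Microneedle patch replicate 2 and Sutured patch replicate 6 stood above the highest MI library, and Sutured patch replicate 2, at 1311 CPM, was level with the lowest.

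Against MI, the log2 fold change of Mmp2 was 0.18 with the microneedle patch (SE 0.21, edgeR adjusted p = 0.593) and 0.087 with the sutured patch (SE 0.21, adjusted p = 0.849). The 95% intervals of these folds ran from 0.83 to 1.53 for the microneedle patch and from 0.78 to 1.44 for the sutured patch, so that a change beyond 1.53-fold either way lay outside both. Each patch group remained above Sham, 6.24-fold with the microneedle patch (log2 fold change 2.64, SE 0.23, adjusted p = 8.9e-10) and 5.86-fold with the sutured patch (2.55, SE 0.22, adjusted p = 2.5e-09). Against Sham 51.5% of the genes tested were called for the microneedle patch, and 25.9% were called higher. For the sutured patch 48% were called, and 24.1% were called higher. The 3 comparisons with Sham share its 6 libraries, and the 2 comparisons with MI share those of MI.

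Timp1, the inhibitor, rose with the infarct and again with a patch. In MI libraries its lowest, median and highest values were 137, 224 and 266 CPM, against 20.1, 32.4 and 41.4 CPM in Sham libraries. The groups did not overlap, and 14.8% of the genes tested separated upward in this way. Means were 211 ± 49.5 CPM in MI and 31.5 ± 7.85 CPM in Sham (SD, n = 6 each). The log2 fold change was 2.75 (SE 0.25, edgeR adjusted p = 5.7e-09), a 6.72-fold rise with a 95% interval from 4.70 to 9.61, above the fold change of 96.4% of the genes tested.

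With the microneedle patch Timp1 ranged from 303 to 853 CPM with a median of 417 CPM, and averaged 512 ± 208 CPM (SD, n = 6). It was 2.42-fold as high as in MI (95% interval 1.73 to 3.40; log2 fold change 1.28, SE 0.24, edgeR adjusted p = 0.00138). All 6 libraries lay above the highest MI library, as was so for 6.54% of the genes tested, and 7.12% of the genes tested were called higher in this comparison (14.5% in either direction).

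With the sutured patch Timp1 ranged from 333 to 574 CPM with a median of 401 CPM, and averaged 426 ± 106 CPM (SD, n = 6). It was 2.01-fold as high as in MI (95% interval 1.44 to 2.82; log2 fold change 1.01, SE 0.24, edgeR adjusted p = 0.0159). Again all 6 libraries lay above every MI library. Such separation upward was seen in 4.59% of the genes tested, and 2.87% were called higher (4.55% in either direction).

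Relative to Sham, Timp1 was 16.3-fold higher with the microneedle patch (log2 fold change 4.02, SE 0.26, edgeR adjusted p = 1.6e-11) and 13.5-fold higher with the sutured patch (3.76, SE 0.26, adjusted p = 6.5e-11), with no overlap in either case. Upward separation of this kind was seen in 15% of the genes tested for the microneedle patch and in 12.7% for the sutured patch. Adjusted p-values of Timp1 against MI stayed below 0.05 without any single library, from 0.00076 to 0.00571 for the microneedle patch and from 0.00614 to 0.0477 for the sutured patch.

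In the RefSeq annotation of the assembly GRCr8, the Timp1 gene overlaps 1 other gene record, Syn1, which encodes the neuronal protein synapsin I, whereas Mmp2 and Mmp9 overlap none. This overlap is of whole gene records from start to end, and overlap of exons was not examined. The use of strand in counting is not stated in the labels. Whether reads of the overlapping gene were counted for Timp1 was not tested. The promoter of Timp1 is shown because it is the one of a member that the promoter table used here holds; as background, activator protein 1 (AP-1) and Ets factors are known to act on it in mouse cells. The 250 bases before its start, from RefSeq on GRCr8 at chrX:3771123-3771372 on the minus strand, are printed 5′ to 3′ with the AP-1 site TGAGTAA and the PEA3 (Ets) site AGGAAG in capitals.
Timp1: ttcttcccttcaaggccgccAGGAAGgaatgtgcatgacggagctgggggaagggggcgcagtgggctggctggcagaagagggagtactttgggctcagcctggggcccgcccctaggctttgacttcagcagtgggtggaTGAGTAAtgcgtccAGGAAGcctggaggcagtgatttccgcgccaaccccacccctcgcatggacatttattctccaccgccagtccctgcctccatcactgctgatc
Both strands were searched. TGAGTAA occurred once, starting 108 bases before the gene start, and 2.38% of the 33469 RefSeq promoter windows of the same length hold it. AGGAAG occurred at 230 and at 94 bases before the start, the second of these 7 bases downstream of TGAGTAA, and 29.5% of the windows hold it. The Sp1 box GGGCGG occurred once on the opposite strand, covering the bases from 142 before the start (30.5% of windows). No match was found for the AP-1 consensus TGANTCA (6.34% of windows), for TATAAA (12.9%) or for TTCNNNGAA, a STAT site (7.67%). The motifs did not overlap each other. These are matches of letters in 1 window. Of the 3 members 1 matched the table, and Mmp2 and Mmp9 did not.

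**Figure D2:**
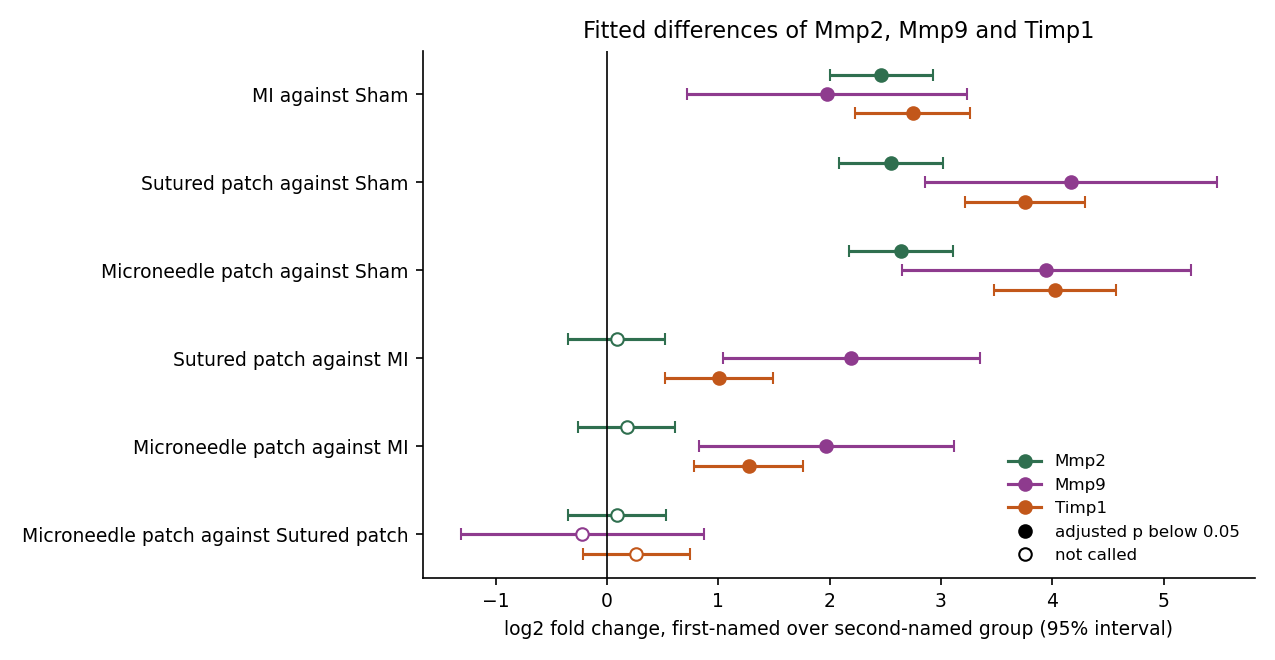
Log2 fold changes of the 3 genes (first-named over second-named group) from the fit to all 24 libraries, with 95% intervals; filled points passed the adjusted p of 0.05 and open points did not. Mmp2 lies near 2.5 in the 3 comparisons with Sham and near 0 elsewhere, Timp1 and Mmp9 lie above 0 in the first 5 comparisons, and the intervals of all 3 genes cross 0 between the patches.

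Mmp9, gelatinase B, rose in the same 5 comparisons as Timp1 but was measured with few counts and varied most among libraries. Its counts per library ran from 73 to 775 with the microneedle patch, from 180 to 865 with the sutured patch, from 24 to 165 in MI and from 0 to 28 in Sham. Sham replicate 5, the shallowest library, held 0 counts, which allows up to 0.55 CPM (a floor of 3 counts, for counting error only). The coefficient of variation of Mmp9 was 95.5% with the microneedle patch, 68.3% with the sutured patch, 71.6% in MI and 70.0% in Sham, whereas that of Mmp2 was between 18.8% and 31.5% and that of Timp1 between 23.4% and 40.7% in the 4 groups.

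In MI libraries Mmp9 had a lowest value of 1.82 CPM, a median of 4.88 CPM and a highest value of 12.6 CPM, against 0, 1.17 and 2.78 CPM in Sham libraries. The groups overlapped, as 4 of 6 MI libraries lay above every Sham library. Means were 5.45 ± 3.90 CPM in MI and 1.32 ± 0.92 CPM in Sham (SD, n = 6 each), a 3.93-fold rise with a 95% interval from 1.65 to 9.40 (log2 fold change 1.98, SE 0.61, edgeR adjusted p = 0.0106). With limma-voom and quality weights this call was lost (log2 fold change 1.49, adjusted p = 0.178). Without Sham replicates 4 and 5, the libraries with the fewest genes, the log2 fold changes in MI against Sham were 2.09 for Mmp9, 2.37 for Mmp2 and 2.87 for Timp1, and each remained called.

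With the sutured patch Mmp9 ranged from 13.2 to 57.7 CPM with a median of 17.4 CPM. All 6 libraries lay above the highest MI library, though the lowest of them by little. Such separation upward was seen in 4.59% of the genes tested. The mean was 25 ± 17 CPM (SD, n = 6), 4.58-fold the MI level (95% interval 2.06 to 10.2; log2 fold change 2.19, SE 0.56, edgeR adjusted p = 0.0257). This fold change exceeded that of 99.1% of the genes tested. The adjusted p rose above 0.05 when Sutured patch replicate 6 was left out (log2 fold change 1.75, adjusted p = 0.0889), and likewise without MI replicate 1 (2.05, adjusted p = 0.0713), 2 (2.04, adjusted p = 0.0578), 4 (2.14, adjusted p = 0.0602) or 5 (2.24, adjusted p = 0.0505).

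With the microneedle patch Mmp9 ranged from 5.49 to 61.8 CPM with a median of 16.5 CPM. Replicate 1 (5.49 CPM) and replicate 4 (8.76 CPM) lay within the MI range and the other 4 libraries above it. The mean was 21.4 ± 20.5 CPM (SD, n = 6), 3.92-fold the MI level (95% interval 1.77 to 8.69; log2 fold change 1.97, SE 0.56, edgeR adjusted p = 0.0207), above the fold change of 99.1% of the genes tested. Without Microneedle patch replicate 2 the difference was 2.50-fold and was not called (log2 fold change 1.32, adjusted p = 0.104), and the call was also lost without MI replicate 1 (1.83, adjusted p = 0.0599).

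Against Sham, Mmp9 was 15.4-fold higher with the microneedle patch (log2 fold change 3.95, SE 0.63, edgeR adjusted p = 1.1e-05) and 18-fold higher with the sutured patch (4.17, SE 0.64, adjusted p = 7.7e-06). In both patch groups every library lay above every Sham library. Such upward separation was seen in 15% of the genes tested for the microneedle patch and in 12.7% for the sutured patch. Without Microneedle patch replicate 2 the log2 fold change against Sham was 3.30, and it was still called.

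**Figure D3:**
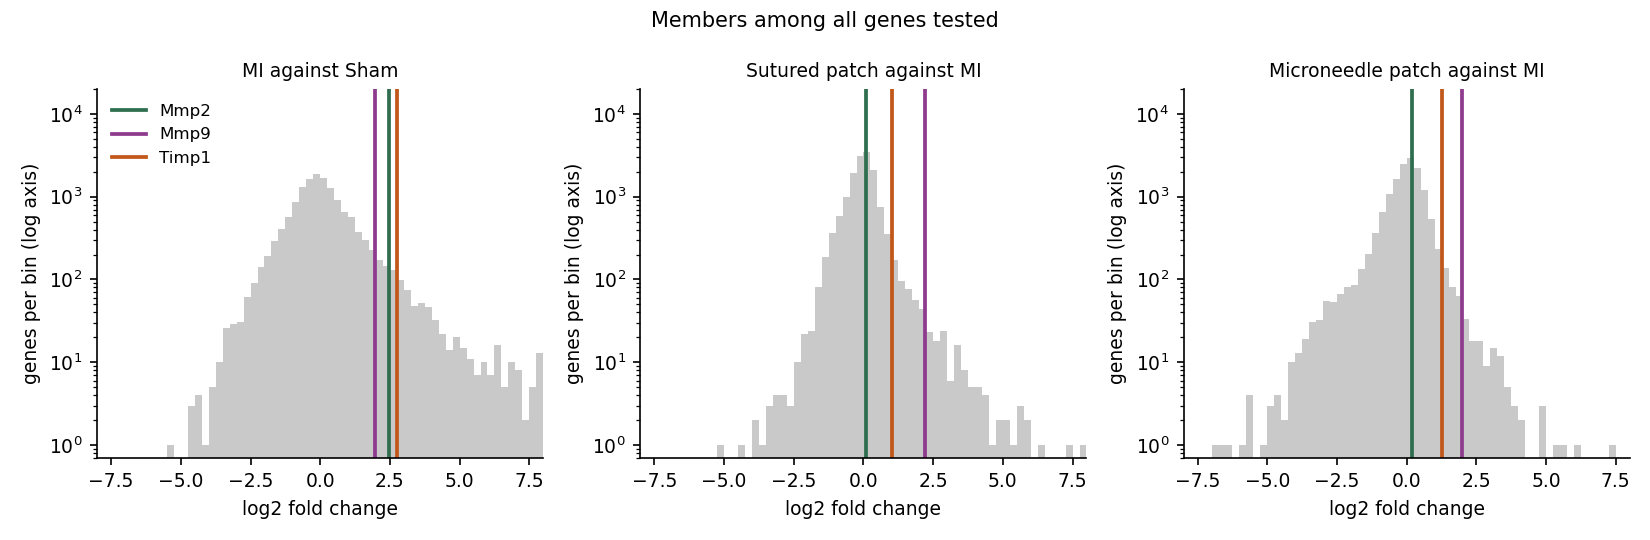
Distribution of the log2 fold changes of all 14540 genes tested (grey, genes per bin of 0.25 on a log axis, values beyond the ends counted in the outermost bins), with Mmp2, Mmp9 and Timp1 as coloured lines, in MI against Sham, Sutured patch against MI and Microneedle patch against MI. All 3 genes lie in the upper tail in MI against Sham; in the patch comparisons Mmp9 is farthest out and Mmp2 lies near the middle.

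The order of the group means was Microneedle patch, Sutured patch, MI and Sham from high to low for Mmp2 and Timp1, and Sutured patch, Microneedle patch, MI and Sham for Mmp9. Between neighbours in this order, MI against Sham passed the test for all 3 genes. In that comparison 44.7% of the genes tested were called, and 21.6% were called higher. Sutured patch against MI passed for Timp1 and not for Mmp2, and Microneedle patch against MI passed for Mmp9, though not without Microneedle patch replicate 2 (adjusted p = 0.104) or MI replicate 1 (adjusted p = 0.0599).

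The top neighbours, the 2 patch groups, did not separate. In Microneedle patch against Sutured patch the log2 fold change was 0.090 for Mmp2 (95% interval -0.35 to 0.53, edgeR adjusted p = 0.90), 0.27 for Timp1 (-0.22 to 0.75, adjusted p = 0.663) and -0.22 for Mmp9 (-1.31 to 0.87, adjusted p = 0.901). None of the 3 reached an unadjusted p of 0.05 either, and DESeq2 and limma-voom called 0 of them. Of all genes tested, edgeR called 0.316% between the patches (46 genes), whereas DESeq2 called 431 and limma-voom 788, and the edgeR count ran from 0 to 302 with single libraries left out. The interval of the fold of Mmp9 ran from 0.40 to 1.83. Differences between the 2 patch groups within this interval were therefore not excluded for this gene.

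The counts of each gelatinase were also set against those of its inhibitor within the same library, which removes library size; the genes differ in length, so only differences between groups are read. For each count of Timp1 there were 4.33 ± 1.22 counts of Mmp2 with the microneedle patch (lowest 3.17, median 4.08, highest 6.33), 4.71 ± 1.38 with the sutured patch (2.81, 4.92 and 6.21), 8.63 ± 0.99 in MI (7.73, 8.45 and 10.49) and 11.7 ± 6.30 in Sham (3.71, 11.5 and 21.5; SD, n = 6 each). All 12 patch libraries lay below every MI library, while Sham libraries lay on both sides of the MI range. Because Timp1 itself rose, a lower ratio to it is common: 52.1% of the other 14539 genes separated downward in the same way with the microneedle patch and 48.8% with the sutured patch. The mean log2 ratio of Mmp2 to Timp1 differed from that in MI by -1.03 with the microneedle patch and by -0.92 with the sutured patch, against medians over all genes of -1.21 and -1.03.

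In MI against Sham the log2 ratio of Mmp2 to Timp1 differed by -0.24, where the median gene differed by -2.66, and the groups overlapped. Counts of Mmp9 were 3.72 ± 1.97% of those of Timp1 with the microneedle patch, 5.72 ± 2.90% with the sutured patch, 2.50 ± 1.41% in MI and 4.64 ± 3.27% in Sham (SD, n = 6 each), and the 4 groups overlapped. No test was made on these ratios.

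**Figure D4:**
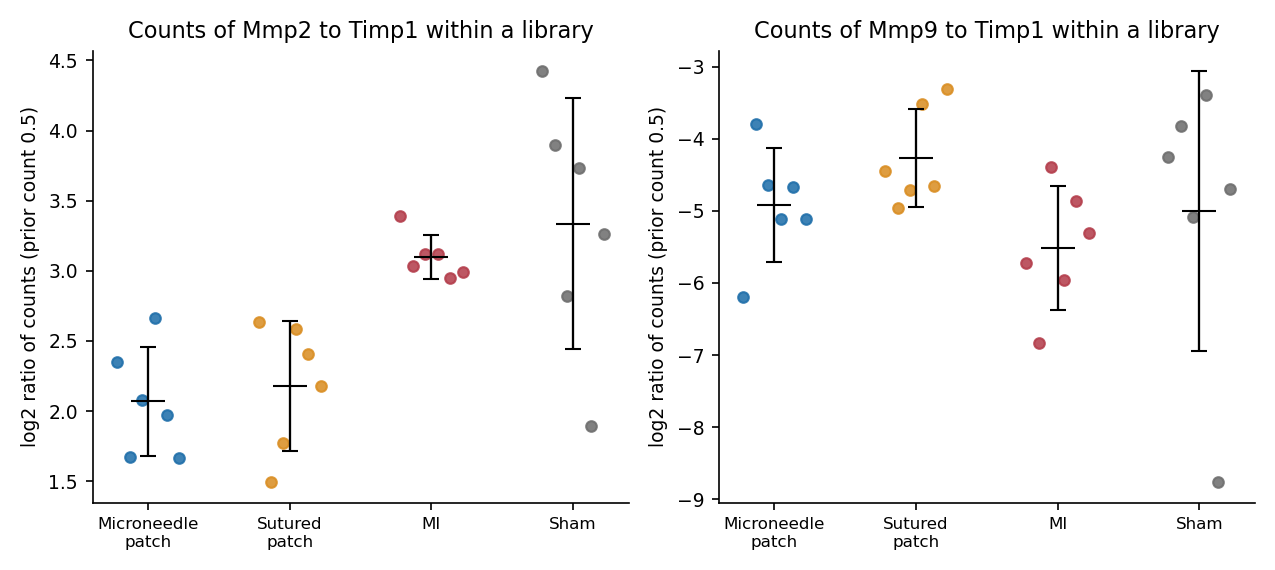
Log2 ratio of the counts of Mmp2 (left) and Mmp9 (right) to those of Timp1 in the same library, with a prior count of 0.5, 1 point per library with mean and SD in black. The Mmp2 ratios of all patch libraries lie below those of MI; the Mmp9 ratios overlap, and the lowest Sham point (-8.76) is the library with 0 counts of Mmp9.

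Within groups, no relation between the 3 genes passed adjustment. Pearson's r and Spearman's rho of log2 CPM (prior count of 2) were computed for the 3 pairs of genes in each group, 12 relations over 6 libraries each, with exact permutation p-values adjusted by Benjamini-Hochberg. The lowest adjusted p was 0.133 for r and 0.0667 for rho. Microneedle patch replicate 2 and Sutured patch replicate 6 were the highest library of their group for each of the 3 genes.

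In MI, Mmp2 and Timp1 had r = 0.91 and rho = 0.94 (exact permutation p = 0.0139 and 0.0167), with r = 0.95 after leaving out the 2 libraries farthest from the median of Mmp2. In Sham the sign was the opposite, with r = -0.81 and rho = -0.94 (exact permutation p = 0.0431 and 0.0167) and r = -0.91 without the 2 farthest. Sham replicate 5 had the least Mmp2 (154 CPM) and the most Timp1 (41.4 CPM) of its group, and Sham replicate 1 the most Mmp2 (433 CPM) and the least Timp1 (20.1 CPM). With the microneedle patch, Mmp9 and Timp1 had r = 0.83 and rho = 0.94 (exact permutation p = 0.0431 and 0.0167), with r = 0.86 without the 2 farthest. In Sham, Mmp2 and Mmp9 had r = 0.90 and rho = 0.43 (exact permutation p = 0.0444 and 0.419). Without replicates 3 and 5, the 2 farthest, r was -0.09, so that this relation rests on those libraries. Sham replicate 5 held 0 counts of Mmp9, so its log2 CPM of -2.65 was set by the prior count. Of the 12 values of r, 7 moved by more than 0.2 when the 2 farthest libraries were left out.

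**Figure D5:**
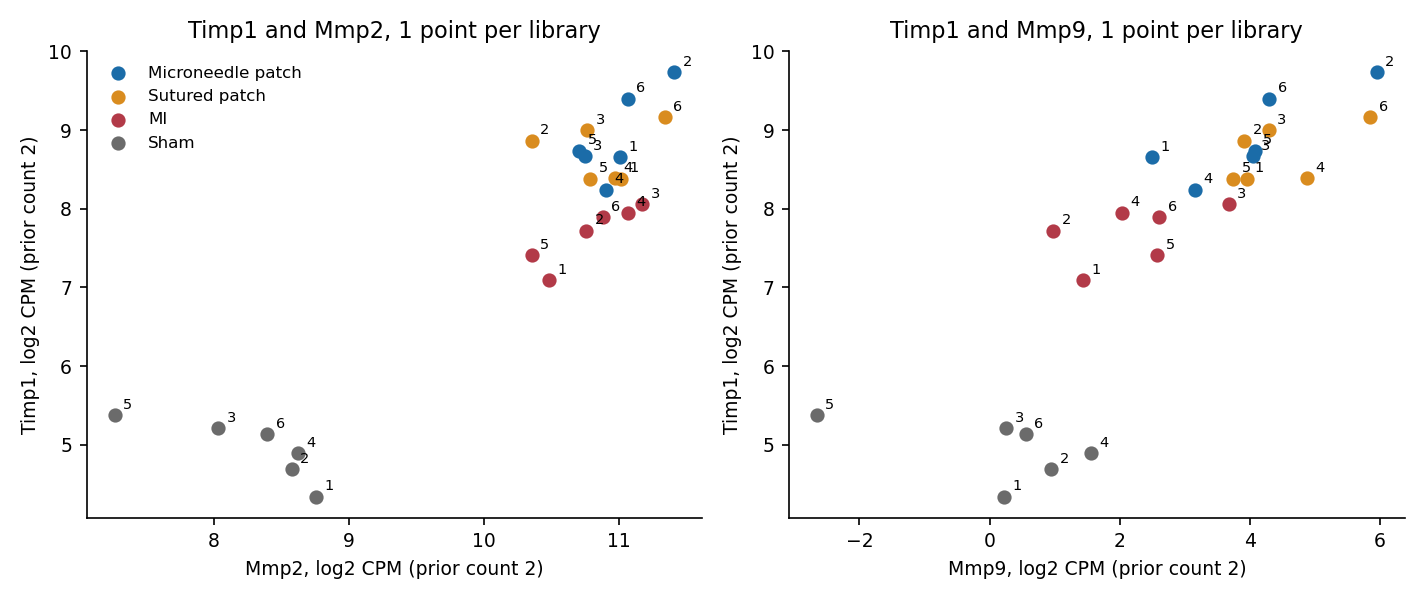
Timp1 against Mmp2 (left) and against Mmp9 (right), in log2 CPM with a prior count of 2, 1 point per library, numbered by replicate. On the left, patch libraries lie above MI libraries at like Mmp2, and the 6 Sham libraries run downward to the right; on the right, Microneedle patch replicate 2 and Sutured patch replicate 6 are the upper right points.

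Genes with a like pattern were sought over all 24 libraries among genes with a mean of at least 10 CPM. Of 9913 other genes, 356 (3.59%) had r above 0.9 with Mmp2, 377 (3.8%) with Timp1 and 28 (0.28%) with Mmp9. These values hold the differences between groups, which many genes share. The closest to Mmp2 was ENSRNOG00000007300 (r = 0.99, and 0.87 with group means removed), which averaged 229 ± 43.3 CPM with the microneedle patch, 197 ± 19.4 with the sutured patch, 192 ± 31.0 in MI and 44.0 ± 11.3 in Sham (SD, n = 6 each). The closest to Timp1 was ENSRNOG00000027125 (r = 0.98, and 0.66 with group means removed), with 39.8 ± 3.78 CPM with the microneedle patch, 36.2 ± 4.75 with the sutured patch, 23.1 ± 4.66 in MI and 7.39 ± 1.14 in Sham. The highest r with Mmp9 was lower, at 0.94. The names of these genes are not paired with their identifiers in the sources used here.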

How the data were processed

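The authors deposited unnormalized counts of reads for each Ensembl gene ID, 1 column for each of 24 libraries. HISAT2, featureCounts and rn6 are named in the submitters' processing notes; versions, annotation release and use of strand were not given in the sources used here. Columns were matched to samples by the code in each title, and 0 columns stayed unassigned. Of 32883 IDs, 0 matched the RefSeq table of GRCr8, so the lists of pathway genes and cell markers were not run, and the 3 members take their names from their selection. Genes were filtered by filterByExpr (minimum count of 10), leaving 14540 genes with 99.6% to 99.9% of counts. The main fit used TMM and edgeR 4.0.16 (R 4.3.3) with robust quasi-likelihood over 4 group means and 20 residual degrees of freedom; adjusted p-values run over all genes of a comparison. Standard errors are the absolute log2 fold change over the square root of F. Intervals cover 95%. Between libraries of 1 group, chi-square per degree of freedom was at least 14.6, so no pair was a duplicate. Reads carry no molecular identifiers, and floors cover counting error only. Alternatives were RLE size factors, no filter, DESeq2 1.42.0, limma-voom (limma 3.58.1), fits of 2 groups, a replicate block, thinning, leaving out libraries and exact permutation. For the group comparisons, exact permutation p-values were adjusted over the 18 member tests only, so their threshold is unlike that of the main fit. The named genes are the members and, for each, the closest genes by r, printed only for the 2 highest. The members, lists and tests were chosen with earlier results of these data known.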

Additional observations from a re-analysis of the deposited data

Results flagged for a closer look

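A gap test for a single library far from the other 5 of its group was applied to 20 sets of values (CPM of the 3 genes and log2 ratios of each gelatinase to Timp1, in 4 groups). It marked 3 sets. Its chance rate of about 1 in 20 holds for normally distributed values only. CPM was tested on its linear scale and not on the log2 scale, so the marked sets of CPM cannot be read against that rate. Nor can the marked set of log2 ratios, where the outlying value came from 0 counts of Mmp9. Mmp9 in Microneedle patch replicate 2 was 61.8 CPM, and its gap to the next library took up 0.75 of the range of the group. Mmp9 in Sutured patch replicate 6 was 57.7 CPM, with a gap of 0.64 of the range. The log2 ratio of Mmp9 to Timp1 in Sham replicate 5 was -8.76, a value set by 0 counts of Mmp9 and the prior count of 0.5.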

How the results depend on the processing

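Mmp2 and Timp1 kept every call and every missed call under all alternatives and with any single library left out. For Mmp9, limma-voom with quality weights lost MI against Sham (1.49), and leaving out Microneedle patch replicate 2 and Sutured patch replicate 6 together, chosen after seeing the data, lost Microneedle patch against MI (1.32, adjusted p = 0.0828). With single libraries left out, the log2 fold change of Mmp9 against MI ran from 1.75 to 2.66 for the sutured patch and from 1.32 to 2.42 for the microneedle patch. The cause of these losses was not tested.

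The numbers of genes called moved more. Sutured patch against MI had 661 genes, 2141 in a fit of the 2 groups, 1715 without Sham replicates 4 and 5, 1146 with DESeq2, 3128 with limma-voom and 362 without Microneedle patch 2 and Sutured patch 6 (308 to 1408 without single libraries). Microneedle patch against MI had 2112, then 4593, 3804 and 5089 with the 2 groups, without Sham 4 and 5 and with limma-voom, and 1260 without Microneedle patch 2 and Sutured patch 6 (1036 to 3482). Microneedle patch against Sutured patch had 46, 28 with no filter, 499 without Sham 4 and 5, 431 with DESeq2, 788 with limma-voom and 88 without the 2 patch libraries (0 to 302). In edgeR it had 0 calls without Sutured patch replicate 4 or 5 or Microneedle patch replicate 2, with 1516, 1630 and 1487 genes at an unadjusted p below 0.05.

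The replicate numbers share no stated source. For same-numbered libraries, deviations of log2 CPM from the group mean correlated from -0.14 to 0.44 over all genes tested. With the replicate block all 18 member tests kept their outcome, called or not called, and Microneedle patch against Sutured patch had 159 genes. With a prior count of 2 in the ratio, no difference of ratios moved by more than 1 SD of the libraries. Leaving out 1 of 6 libraries cannot move a group mean that far, so those settings could not decide how stable the ratios are. Of 12 correlations, 7 moved by more than 0.2 without the 2 farthest libraries. Among them were Mmp2 and Timp1 with the sutured patch (0.09, then -0.62) and Mmp2 and Mmp9 with the microneedle patch (0.57, then -0.18). Mmp9 had 81 counts in all over the 6 Sham libraries; with all libraries thinned to the lowest total, MI against Sham was still called.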
